A study of Mus musculus with 12 samples.

Results

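The genes described are 34 genes of the endoplasmic reticulum (ER) stress response and of the folding and export of secreted proteins, measured by RNA-seq in mouse liver. They were listed by name for their known roles, and their Ensembl identifiers were matched to symbols. No measured value enters that rule, but the list was chosen with earlier results of these data known. All 34 were among the 16346 genes of the deposited table, and all 34 were among the 12366 tested, whose normalized counts averaged 10 or more. In these livers 19 of the 34 were higher and 3 were lower in sugar-fed than in fasted mice, a comparison that called 21.8% of all genes tested. Averaged over the diets, 21 were lower and 1 was higher in the libraries labelled MED13-LKO than in control, where 25.3% of all genes were called. Under equal library sums these counts were 5 and 5, where 3.28% of all genes were called lower and 57.5% higher. With either scaling 32 of the 34 were below the median of all genes.

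Secreted and membrane proteins enter the ER through the Sec61 channel, and chaperones, lectins and disulfide isomerases fold them there. When unfolded proteins accumulate, the sensors IRE1, PERK and ATF6 raise the genes of chaperones and of ER-associated degradation. PERK also slows translation by phosphorylating eIF2 alpha, and ATF4 is a factor that is translated when this occurs. The liver secretes most plasma proteins, and its ER folding capacity is known to rise after meals.

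Livers came from control mice, which carry the floxed *Med13* allele on both copies (Med13 fl/fl), and from MED13-LKO mice, in which the same allele is recombined by an *Alb*-Cre transgene that is active in hepatocytes. All were C57BL6J mice of 12 weeks by their labels. In each genotype 2 mice had been fasted for 16 h, 2 had been refed for 4 h with chow and water holding 30% sucrose, and 2 likewise with 30% fructose, so that 12 libraries fall into 6 groups. The fed mice were killed later in the day than the fasted mice and mice on chow with plain water were not analysed here, so feeding, sugar and hour cannot be told apart. The question addressed by the study was how liver gene expression responds to the sugars without the Mediator kinase module, to which MED13 belongs.

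The labels were checked first. *Med13* RNA was at 646 to 1055 normalized counts in the libraries labelled MED13-LKO and at 578 to 796 in control, with no decrease (log2 fold change 0.22, SE 0.115, adjusted p = 0.201 from limma), and since the table is per gene it cannot show the loss of particular exons. *Nnt*, a mitochondrial transhydrogenase gene of which C57BL/6J mice are known to carry a deleted copy, was at 529 to 1004 in the 6 control libraries and at 2617 to 3687 in the 6 labelled MED13-LKO. Its level thus divided the genotypes completely, and a difference in strain background and the *Med13* genotype cannot be told apart. The hepatocyte genes *Alb*, *Apoa1*, *Ttr*, *Serpina1c*, *Apoc3*, *Hnf4a* and *Cps1* were abundant in all 12 libraries. Their summed normalized counts were 2390059 to 3056808 in control and 1787646 to 2147708 in the libraries labelled MED13-LKO, and 6 of the 7 were lower there with a median log2 fold change of -0.44. The sum over all genes was 21062211 to 24152885 in control and 17309215 to 18738563 in the others. In such bulk tissue, fewer hepatocytes, less RNA per hepatocyte and lower RNA of these genes alone cannot be told apart.

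Stretches of promoter with short elements known from this response are shown here so that their letters can be read beside the values, for 6 members chosen after those values were seen. *Canx*, which holds ERSE, was called in no comparison, and *Sdf2l1* and *Pdia4*, which had windows, held none of the elements. The ER stress element (ERSE) was searched as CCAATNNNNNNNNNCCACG, ERSE-II as ATTGGNCCACG and the C/EBP-ATF response element (CARE) as TGATGNAA, on both strands, in the windows from 250 bases before to 50 bases after each start that RefSeq gives for GRCm38.p6. Of the 34 members 28 had a window, and *Sec61a1*, *Hyou1*, *Manf*, *Derl1*, *Atf6* and *Ostc* had none. ERSE was found in 8 of these 28 (*Calr*, *Canx*, *Creld2*, *Dnajc3*, *Hsp90b1*, *Hspa5*, *Pdia6* and *Syvn1*) and in 0.119% of all 32851 windows. ERSE-II was found in *Dnajb11* and *Herpud1* and in 0.037% of all windows, and CARE in *Asns*, *Herpud1* and *Trib3* and in 3.969%. These matches are descriptions of letters, not tested sites. Since the elements are known from genes of this response, their share among the members is no test. The members are also counted by gene and the background by window. Each sequence is from RefSeq, 5′ to 3′ on the strand of its gene, with the matched element in capitals. They lie at chr2:34771985-34772083 (+ strand) for *Hspa5*, chr15:88819480-88819578 (+) for *Creld2*, chr19:6046492-6046575 (+) for *Syvn1*, chr11:50325760-50325858 (- strand) for *Canx*, chr8:94386337-94386427 (+) for *Herpud1* and chr6:7693210-7693272 (-) for *Asns*. In *Creld2* the element is on the opposite strand and so reads as its reverse complement.
Hspa5 (ERSE): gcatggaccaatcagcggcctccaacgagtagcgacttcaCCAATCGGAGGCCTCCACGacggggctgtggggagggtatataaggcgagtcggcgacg
Creld2 (ERSE, reverse): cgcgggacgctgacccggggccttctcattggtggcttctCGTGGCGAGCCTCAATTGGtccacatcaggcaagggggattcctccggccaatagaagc
Syvn1 (ERSE): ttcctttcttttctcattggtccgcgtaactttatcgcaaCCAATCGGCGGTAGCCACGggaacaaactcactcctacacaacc
Canx (ERSE): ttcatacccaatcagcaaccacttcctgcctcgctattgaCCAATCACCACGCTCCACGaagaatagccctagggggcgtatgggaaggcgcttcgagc
Herpud1 (ERSE-II): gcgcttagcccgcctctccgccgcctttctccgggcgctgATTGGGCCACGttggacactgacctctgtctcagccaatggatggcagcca
Asns (CARE): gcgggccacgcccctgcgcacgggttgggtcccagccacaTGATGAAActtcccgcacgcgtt

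Feeding was compared first, as the mean of both sugars against the fasted state over both genotypes, with limma on log2(normalized count + 1), all 12 libraries in 1 fit and Benjamini-Hochberg adjustment over the 12366 genes. A gene is called when its adjusted p is under 0.05. Of the 34 members 22 were called, against 21.8% of all genes tested. The 19 called higher compare with 10.7% of all genes and the 3 called lower with 11% of all genes. The median log2 fold change of the members was 0.38, and that of all genes was -0.01. Both fasted mice numbered 2 weighed on this count. It was 9 higher and 3 lower without control fasted mouse 2, and 10 higher and 3 lower without MED13-LKO fasted mouse 2. For 12 of the 22 genes (*Ddit3*, *Derl2*, *Dnajb11*, *Ern1*, *Herpud1*, *Hyou1*, *Manf*, *Pdia4*, *Ppp1r15a*, *Ssr1*, *Trib3* and *Xbp1*) the call was made without each library in turn. It was lost in 8 of the 12 refits for *Pdia6*, in 7 for *Pdia3*, in 5 each for *Creld2* and *Syvn1*, and in 2 or 3 for the others.

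Genotype was compared next, as the mean difference over the 3 diets. Again 22 members were called, against 25.3% of all genes tested. The 21 called lower compare with 13.2% of all genes and the 1 called higher, *Trib3*, with 12.1%. The fold change was below 0 for 32 of the 34 members, with a median of -0.44 on the log2 scale against 0.01 for all genes. That median is the size of the difference of the hepatocyte markers given above, and the part of hepatocyte content in it was not tested. The scaling of the libraries bears on the count. When each library was divided by its own sum, a choice made after the sums were seen, the median of all genes moved to 0.32. The members then stood at 5 higher and 5 lower, where 57.5% of all genes were called higher and 3.28% lower. Of the 34 members 32 were again below the median of all genes, with a gap between the medians of -0.44. The call was made without each library in turn for 16 of the 22 genes. It was lost in 8 of the 12 refits for *Hspa5* and for *Pdia4* (highest adjusted p = 0.0938 and 0.0812 from limma), in 6 for *Atf4*, in 4 for *Calr*, in 2 for *Pdia6* and in 1, without MED13-LKO fasted mouse 2, for *Creld2* (adjusted p = 0.0514). The heat map of all members by library shows both comparisons.

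**Figure D1:**
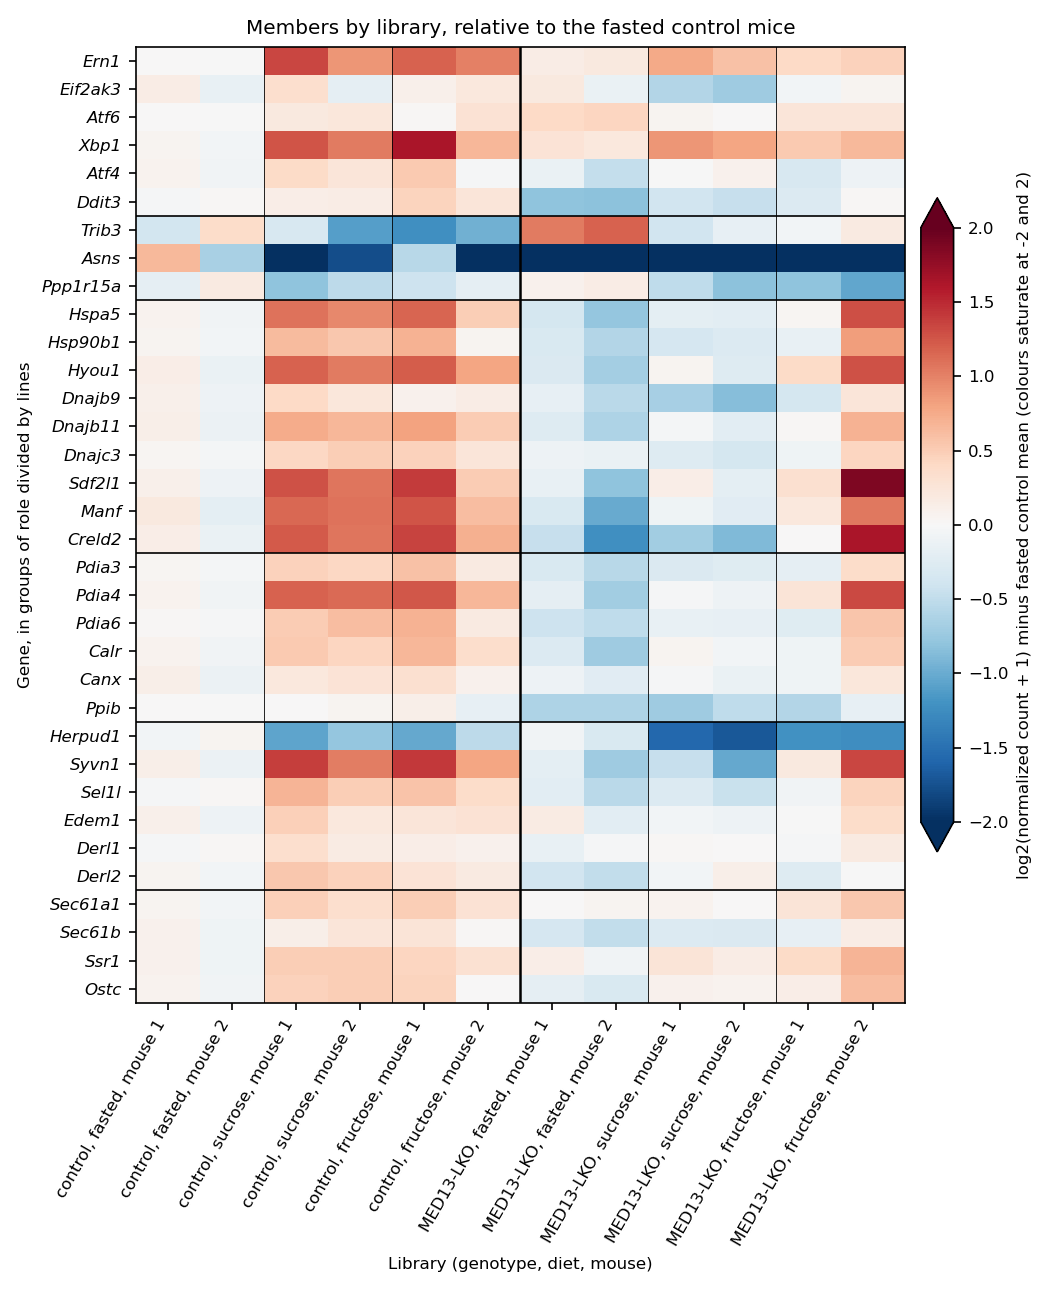
Log2(normalized count + 1) of the 34 members (rows, in groups of role) in the 12 libraries (columns), minus the mean of the 2 fasted control mice. Most chaperone rows are red in the 4 sugar-fed control mice and in MED13-LKO fructose mouse 2 and pale or blue in the other mice labelled MED13-LKO, while Herpud1 is blue in all 8 fed mice.

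The HSP70 and HSP90 chaperones of the ER and their co-factors form the largest group, with 9 members. Feeding raised 6 of them (*Hspa5*, *Hyou1*, *Dnajb11*, *Sdf2l1*, *Manf* and *Creld2*), and 7 were lower in the libraries labelled MED13-LKO, all but *Hsp90b1* and *Sdf2l1*. *Hspa5*, on chromosome 2 from 34771970 to 34777547, encodes BiP, the main HSP70 of the ER. In control mice its normalized counts were 27705 and 24914 fasted, 55488 and 50870.0 after sucrose and 58644 and 36913 after fructose. In mice labelled MED13-LKO they were 20549.5 and 15414 fasted, 23051 and 22714 after sucrose and 27113 and 63915 after fructose. All 4 fed control mice lay above every fasted mouse, whereas 3 of the 4 fed mice labelled MED13-LKO lay below them, within or near the range of the fasted control mice. The fourth, fructose mouse 2, had the highest value of all 12. *Hspa5* was higher with feeding (log2 fold change 0.86, SE 0.207, adjusted p = 0.0163) and lower in the libraries labelled MED13-LKO (log2 fold change -0.65, SE 0.195, adjusted p = 0.0361), the latter a call that most refits without 1 library did not make.

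*Creld2*, on chromosome 15 from 88819646 to 88826683, encodes a disulfide-handling protein that is secreted under ER stress. Its counts in control mice were 1654 and 1371 fasted, 3511 and 3147 after sucrose and 3828 and 2452 after fructose. In the mice labelled MED13-LKO they were 1097 and 640.2 fasted, 928 and 817 after sucrose and 1511 and 4669.6 after fructose. The sucrose-fed mice of the latter were in the range of their fasted mice, and both groups were below every control library. The changes were 0.97 on the log2 scale with feeding (SE 0.27, adjusted p = 0.0286) and -0.99 between genotypes (SE 0.254, adjusted p = 0.0178). *Manf*, a secreted factor retained by BiP, was at 2802 and 2143 fasted, 5427 and 5202 after sucrose and 5846 and 3769.6 after fructose in control. With the MED13-LKO label it was at 1976 and 1212 fasted, 2297 and 2084 after sucrose and 2834 and 5109.8 after fructose. The order of the groups was as for *Hspa5*, and both changes were called (feeding 0.96, genotype -0.75, adjusted p = 0.00571 and 0.0121).

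*Hyou1* encodes a large HSP70-like protein that exchanges nucleotide on BiP. Control mice had 4771 and 3932 fasted, 9847 and 8947 after sucrose and 10069.5 and 7498 after fructose. Mice labelled MED13-LKO had 3545 and 2712 fasted, 4499 and 3612 after sucrose and 5656 and 10439 after fructose. It rose with feeding (log2 fold change 0.95, SE 0.161, adjusted p = 0.00281) and was lower between genotypes (log2 fold change -0.63, SE 0.152, adjusted p = 0.0139), and the libraries of the genotypes overlapped. *Sdf2l1*, a partner of ERdj3 in the BiP cycle, had the largest rise of the 34 with feeding (log2 fold change 1.03, SE 0.271, adjusted p = 0.0225). Its counts were 467 and 409 fasted, 1056 and 919 after sucrose and 1158 and 622 after fructose in control, and 396 and 251 fasted, 482 and 382 after sucrose and 547 and 1596 after fructose with the MED13-LKO label. The difference between genotypes was not called (adjusted p = 0.177), and the library with the highest count carried the MED13-LKO label.

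The J-domain proteins, which hand clients to BiP, behaved less alike. *Dnajb11* (ERdj3) was 1753 and 1501 fasted, 2716 and 2559.6 after sucrose and 2834 and 2313 after fructose in control. It was 1363 and 1056 fasted, 1574 and 1407 after sucrose and 1641 and 2636 after fructose in the other genotype, and it was called for feeding (0.62, adjusted p = 0.0075) and for genotype (-0.52, adjusted p = 0.0105). *Dnajb9* (ERdj4), which represses IRE1, was 2675 and 2345 fasted, 3291 and 2946 after sucrose and 2666 and 2783 after fructose in control. It was 2236 and 1715 fasted, 1579.7 and 1392 after sucrose and 1963 and 2952 after fructose with the MED13-LKO label. Its fed and fasted values overlapped in both genotypes and feeding was not called (adjusted p = 0.634), but genotype was (log2 fold change -0.53, SE 0.106, adjusted p = 0.00518). *Dnajc3* (p58IPK), a PERK inhibitor and BiP co-chaperone, ranged from 6678 to 12002 and was called for genotype alone (log2 fold change -0.35, SE 0.0814, adjusted p = 0.0112). *Hsp90b1* (GRP94), an HSP90 with a selective set of clients, ranged from 14671 to 39249 and was called in none of the comparisons. Its fold changes were 0.47 with feeding and -0.45 between genotypes (adjusted p = 0.0797 and 0.0667). Of its 31-base subsequences 12.344% also occur in other genes, and for *Dnajb9* this share is 10.766%, so that reads could be split there.

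**Figure D2:**
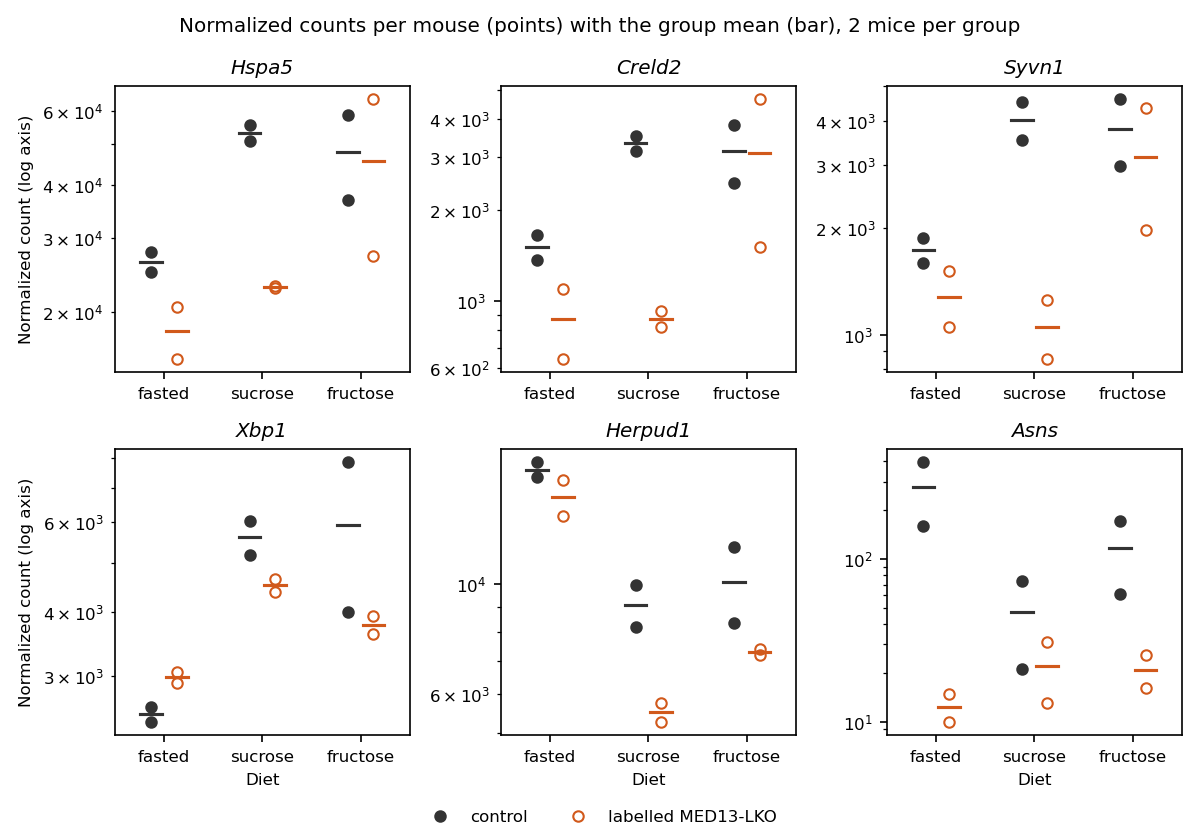
Normalized counts (log axis) of 6 members by diet, with 1 point per mouse, filled for control and open for the mice labelled MED13-LKO, and bars at the means of 2 mice. With sucrose the open points of Hspa5, Creld2 and Syvn1 lie far below the filled ones, and with fructose 1 of the 2 open points lies above both filled ones for Hspa5 and Creld2 and between them for Syvn1.

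The disulfide isomerases, lectin chaperones and cyclophilin B have 6 members. Feeding raised *Pdia3*, *Pdia4*, *Pdia6* and *Calr*, and 5 of the 6, all but *Canx*, were lower in the libraries labelled MED13-LKO. *Pdia4* encodes ERp72, which forms and shuffles disulfide bonds. Its counts were 4107 and 3717 fasted, 8824 and 8600.1 after sucrose and 9223 and 6197 after fructose in control mice. They were 3454 and 2421 fasted, 3847 and 3629 after sucrose and 4650.2 and 9774 after fructose in mice labelled MED13-LKO. Every fed control mouse exceeded every fasted mouse, and the changes were 0.92 with feeding and -0.61 between genotypes (adjusted p = 0.00668 and 0.0299). *Pdia3* (ERp57), *Pdia6* (P5) and calreticulin (*Calr*) had smaller rises of 0.38, 0.48 and 0.54 with feeding and differences of -0.47, -0.49 and -0.42 between genotypes. Most refits without 1 library did not make the feeding calls of *Pdia3* and *Pdia6*. Calnexin (*Canx*), the membrane-bound lectin, ranged from 7614 to 11208 over all libraries and was called in no comparison (adjusted p = 0.105 with feeding and 0.0606 between genotypes).

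*Ppib* encodes cyclophilin B, a proline isomerase of the ER, and is the gene to which the study's methods normalise quantitative PCR. Its counts were 4196 and 4159.6 fasted, 4208 and 4354 after sucrose and 4532 and 3746 after fructose in control. They were 2723 and 2724 fasted, 2548 and 2943 after sucrose and 2785 and 3726 after fructose with the MED13-LKO label. It was the single member for which all 6 libraries labelled MED13-LKO lay below all 6 control libraries, as was so for 4.93% of the genes tested. The log2 fold change was -0.54 (SE 0.0786, adjusted p = 0.000979), and feeding did not change it detectably (0.07, adjusted p = 0.608). After scaling to equal library sums the difference was -0.22 and still called (adjusted p = 0.0237). Of the 31-base subsequences of *Ppib* 36.989% occur in other genes, 23.235% in *Snx22*, whose normalized counts were 7.94 to 35.2.

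ER-associated degradation returns misfolded proteins to the cytosol, and 4 of its 6 members were called with feeding. *Syvn1*, *Sel1l* and *Derl2* rose and *Herpud1* fell. These 4 were also the members of the group that were lower in the libraries labelled MED13-LKO. *Syvn1*, on chromosome 19 from 6046576 to 6053712, encodes the ubiquitin ligase HRD1. In control mice it was at 1870.5 and 1598 fasted, 4505 and 3525 after sucrose and 4603 and 2975 after fructose. In mice labelled MED13-LKO it was at 1510.1 and 1054 fasted, 1255 and 854 after sucrose and 1969.5 and 4347 after fructose. After sucrose both control values were above the fasted control values, while with the MED13-LKO label they were within or below the range of the fasted mice. Feeding gave 0.81 (SE 0.218, adjusted p = 0.0254) and genotype -0.91 (SE 0.206, adjusted p = 0.00968). *Sel1l*, the partner that stabilises HRD1, was 4265 and 4416 fasted, 6948 and 6138 after sucrose and 6434 and 5616 after fructose in control. It was 3745 and 3002 fasted, 3587 and 3202 after sucrose and 4118 and 5895 after fructose with the MED13-LKO label, where 5 of 6 libraries were below every control library. The changes were 0.41 and -0.54 (adjusted p = 0.0176 and 0.00296).

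*Herpud1*, on chromosome 8 from 94386438 to 94395377, encodes a membrane protein that organises the HRD1 complex. Control values were 16490.0 and 17708 fasted, 8193 and 9991 after sucrose and 8363 and 11893 after fructose. Values with the MED13-LKO label were 16294 and 13776 fasted, 5755 and 5249 after sucrose and 7414 and 7203 after fructose. All 8 fed mice lay below all 4 fasted mice, as was so for 4.79% of the genes tested, and *Herpud1* was the single member of which this held. It fell by 1.04 on the log2 scale with feeding (SE 0.0972, adjusted p = 0.000111) and was called lower with either sugar in either genotype. It was also lower by genotype (log2 fold change -0.45, SE 0.0916, adjusted p = 0.00582). *Derl2*, a channel component, was 2609 and 2404 fasted, 3635 and 3444 after sucrose and 3023 and 2846 after fructose in control. It was 1915 and 1775 fasted, 2405 and 2709.5 after sucrose and 2100.1 and 2480.0 after fructose with the MED13-LKO label, and both changes were called (0.38 with feeding, -0.42 by genotype, adjusted p = 0.0024 and 0.000682). *Derl1*, its paralog, and *Edem1*, a mannosidase-like protein that marks glycoproteins for disposal, were called in none of the comparisons. They ranged from 2329 to 3275 and from 2271 to 3636, with differences between genotypes of -0.12 and -0.18 (adjusted p = 0.133 and 0.172).

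The translocon group has 4 members, of which *Sec61a1*, *Ssr1* and *Ostc* rose with feeding and *Sec61b* was lower by genotype. *Ssr1* encodes a subunit of the translocon-associated protein complex. In control it was 1735 and 1553 fasted, 2319 and 2321 after sucrose and 2216 and 2031 after fructose. With the MED13-LKO label it was 1795 and 1561 fasted, 1955 and 1821 after sucrose and 2145 and 2620.1 after fructose. All 8 fed mice lay above all 4 fasted mice, which also held for *Ern1* and *Xbp1* and for 4.01% of the genes tested. The rise was 0.39 (SE 0.0691, adjusted p = 0.00377) and the difference between genotypes was not called (-0.04, adjusted p = 0.725). *Ostc*, of the oligosaccharyl transferase, was 1104 and 1004 fasted, 1442 and 1485 after sucrose and 1432 and 1064 after fructose in control. It was 930.1 and 852 fasted, 1119 and 1110.0 after sucrose and 1155 and 1611 after fructose with the MED13-LKO label (0.41 with feeding, adjusted p = 0.0171). *Sec61a1*, the pore of the channel, ranged from 2512 to 3796 and rose by 0.29 (adjusted p = 0.0135). *Sec61b*, a small subunit of the channel, was 843 and 748 fasted, 865 and 944 after sucrose and 948 and 808 after fructose in control. It was 631 and 566 fasted, 659 and 651 after sucrose and 708 and 879.9 after fructose with the MED13-LKO label (-0.34, adjusted p = 0.00813), and 23.502% of its subsequences occur in other genes.

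The sensors and transcription factors also have 6 members, and feeding raised *Ern1*, *Xbp1* and *Ddit3*. *Ern1*, on chromosome 11 from 106394650 to 106487852, encodes the sensor IRE1 alpha. In control mice it was 1299 and 1281 fasted, 3246 and 2388 after sucrose and 2926 and 2581 after fructose. In the mice labelled MED13-LKO it was 1424 and 1473 fasted, 2178 and 1930.4 after sucrose and 1694 and 1774 after fructose. *Xbp1*, on the same chromosome from 5520659 to 5525893, encodes the transcription factor whose RNA is spliced by IRE1, and the table gives both spliced and unspliced RNA as 1 value. It was 2616 and 2434 fasted, 6022 and 5185 after sucrose and 7869 and 3999 after fructose in control. It was 3063 and 2908 fasted, 4651 and 4378 after sucrose and 3629.9 and 3936 after fructose with the MED13-LKO label. Neither gene had a fed mouse below a fasted mouse. The changes with feeding were 0.74 for *Ern1* and 0.81 for *Xbp1* (adjusted p = 0.000264 and 0.00371). Between genotypes *Ern1* was called lower (log2 fold change -0.31, SE 0.0759, adjusted p = 0.0139), a difference that was at 0.0033 under equal library sums. *Xbp1* was not called (-0.21, adjusted p = 0.291). In both genes the fasted values with the MED13-LKO label were above those of control, and with either sugar they were below them.

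*Ddit3* encodes CHOP, which promotes cell death under prolonged stress. It was 168 and 175 fasted, 189 and 190.0 after sucrose and 235 and 202 after fructose in control. It was 97.2 and 96.3 fasted, 131 and 124 after sucrose and 142 and 174 after fructose with the MED13-LKO label, so that the lowest values were those of the 2 fasted mice of that genotype. Both changes were called (0.39 with feeding, -0.62 by genotype, adjusted p = 0.0132 and 0.000704). *Atf6* encodes a sensor that is itself cut to a transcription factor. Control mice had 2091 and 2066 fasted, 2377 and 2439.9 after sucrose and 2123 and 2551 after fructose. Mice labelled MED13-LKO had 2731 and 2812 fasted, 2151 and 2085 after sucrose and 2469 and 2465 after fructose, highest when fasted. Neither main comparison called it. *Eif2ak3* encodes the sensor PERK, and its counts were 523 and 423 fasted, 595 and 415 after sucrose and 506 and 543 after fructose in control. They were 539 and 429 fasted, 314 and 287 after sucrose and 452 and 488 after fructose with the MED13-LKO label, lowest with sucrose. *Atf4*, the factor translated when eIF2 alpha is phosphorylated, ranged from 1199.9 to 2402 and was lower by genotype (-0.35, adjusted p = 0.0295).

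The outputs of the PERK-ATF4 branch have 3 members. *Asns*, on chromosome 6 from 7675169 to 7693254, encodes asparagine synthetase. Its counts were 397 and 161 fasted, 21.2 and 73.5 after sucrose and 173 and 61.7 after fructose in control. They were 9.94 and 15 fasted, 31.1 and 13 after sucrose and 16.1 and 25.8 after fructose with the MED13-LKO label. It had the largest difference between genotypes of the 34 (log2 fold change -2.50, SE 0.408, adjusted p = 0.00182) and the widest spread between control mice of a group. Feeding was not called (-0.64, adjusted p = 0.328). *Trib3* encodes a pseudokinase that restrains ATF4 and AKT. In control it was 67.6 and 114 fasted, 70.4 and 40.2 after sucrose and 36.8 and 44.7 after fructose. With the MED13-LKO label it was 181 and 201 fasted, 67.3 and 78.4 after sucrose and 84.6 and 100 after fructose. It was lower with feeding (log2 fold change -1.06, SE 0.189, adjusted p = 0.00374) and was the single member called higher by genotype (log2 fold change 0.90, SE 0.178, adjusted p = 0.00513). *Asns* and *Trib3*, both with CARE in their promoter windows, thus differed in direction between the genotypes. *Ppp1r15a* encodes GADD34, which directs the phosphatase of eIF2 alpha. It was 216 and 279 fasted, 141 and 171 after sucrose and 185 and 217 after fructose in control. It was 261 and 272 fasted, 172 and 138 after sucrose and 141 and 119 after fructose with the MED13-LKO label, and it fell by 0.69 with feeding (SE 0.114, adjusted p = 0.0024).

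Within diets, the genotypes differed in the most members with sucrose. There 14 members were called lower and 0 higher, against 6.03% of all genes tested. Both sucrose-fed mice labelled MED13-LKO lay below both sucrose-fed control mice in 31 of the 34, as was so for 27.2% of all genes. The median difference was -0.67 on the log2 scale. The calls were *Hyou1*, *Dnajb9*, *Dnajb11*, *Dnajc3*, *Manf* and *Creld2* of the HSP70 group, *Pdia3*, *Pdia4* and *Ppib*, *Syvn1*, *Sel1l*, *Herpud1* and *Derl2*, and *Eif2ak3*. The largest were *Syvn1* at -1.94 (SE 0.356, adjusted p = 0.0122) and *Creld2* at -1.93 (SE 0.441, adjusted p = 0.0317), followed by *Manf* at -1.28, *Hyou1* and *Pdia4* at -1.22 each, and *Dnajb9* at -1.07. *Hspa5* differed by -1.22 and was not called (adjusted p = 0.0657). With 2 mice per group these calls are fragile, and a refit without a mouse of a compared group leaves a lone mouse there, which is assumed to vary like the mice of the other groups. *Eif2ak3* was at -0.46 in place of -0.72 without control sucrose mouse 1. Limma called 0 without sucrose-fed mouse 1 or mouse 2 labelled MED13-LKO (24 and 20 at an unadjusted p under 0.05). The count was 1 or 5 without sucrose-fed control mouse 1 or 2, 8 without either fasted control mouse, and 19 without either fructose-fed mouse labelled MED13-LKO. Under equal library sums 7 were called, all lower, where the median of all genes was 0.28 and 33 of the 34 members were below it.

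In the fasted state 5 members were called between genotypes, against 8.98% of all genes. *Asns* (-4.26), *Ddit3* (-0.82), *Ppib* (-0.62) and *Derl2* (-0.44) were lower and *Atf6* was higher (0.41), with adjusted p from 0.00602 to 0.0254. Both fasted mice labelled MED13-LKO lay below both fasted control mice in 24 of the 34 members and in 28.1% of all genes, with a median of -0.39. Under equal library sums 5 were higher and 2 lower, where the median of all genes was 0.35 and 26 of the 34 members were below it. The count was 0 without control mouse 1 (limma, 5 at an unadjusted p under 0.05), 1 without control mouse 2 or MED13-LKO mouse 2, and 2 without MED13-LKO mouse 1. With fructose only *Ern1* was called lower (log2 fold change -0.66, SE 0.131, adjusted p = 0.0152) and *Trib3* higher (log2 fold change 1.16, SE 0.309, adjusted p = 0.0491), against 7.69% of all genes. The 2 mice labelled MED13-LKO lay below both control mice in 10 of the 34 members and in 25.2% of all genes, and the median was -0.19. Limma called 0 without fructose-fed mouse 1 or mouse 2 labelled MED13-LKO (7 and 21 at an unadjusted p under 0.05), and 1 without any fasted or sucrose-fed mouse of that label or without control fructose mouse 1. Under equal library sums 3 were called higher and 0 lower, where the median of all genes was 0.32 and 28 of the 34 members were below it.

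**Figure D3:**
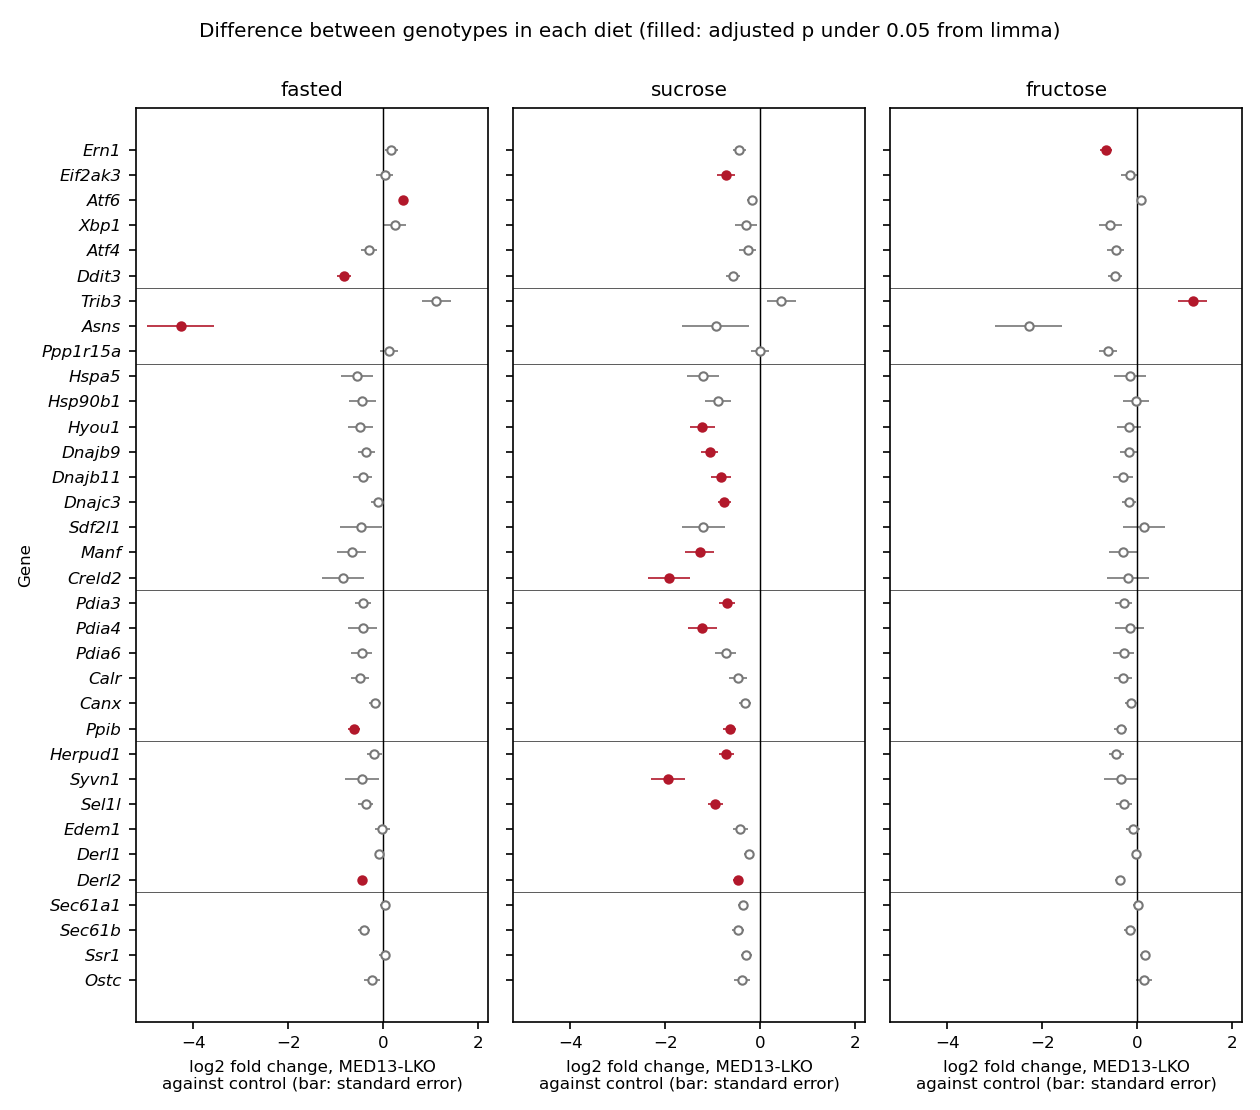
Log2 fold change of the libraries labelled MED13-LKO against control (x axis, bars are standard errors from limma) for the 34 members (y axis) in each diet, with 2 mice per group and filled red points for adjusted p under 0.05. With sucrose 33 of the 34 points lie left of 0, and with fructose the chaperones lie near 0. The fructose points average 2 unlike mice labelled MED13-LKO, with medians of -0.08 and 0.70 relative to fasted control over 15 chaperones and isomerases.

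The mice of a pair also differed over the members as a whole. MED13-LKO fructose mouse 2 exceeded mouse 1 in 31 of the 34 members, with a median of 0.45 on the log2 scale and a maximum of 1.63 for *Creld2* (all genes, -0.0023). In the control fructose pair mouse 1 exceeded mouse 2 in 27 members, with a median of -0.26 for mouse 2 minus mouse 1. The other 4 pairs were 1-sided as well, with mouse 1 higher in 22 to 28 members, but with medians of -0.22 to -0.09. A difference over 0.5 on the log2 scale was seen in 16 and 12 members of the MED13-LKO and control fructose pairs and in 2 to 6 members of the others. Over all genes the share past that size was 15.6% and 21.2% in the fructose pairs and 12.5% to 16.3% in the others. Fed control mouse 2 of that pair also had the fasting gene *Pck1* at 48079, against 7416 in mouse 1 and 82070.2 and 105586 in the fasted mice. Over the 15 chaperones and isomerases, the median level relative to fasted control was 0.70 and 0.36 in the 2 fructose-fed control mice. It was -0.08 and 0.70 in the 2 labelled MED13-LKO, and from -0.62 to -0.16 in the other 4 libraries with that label.

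The response to each sugar was then taken within a genotype, against the fasted mice of that genotype. In control mice sucrose raised *Hyou1*, *Pdia4*, *Xbp1*, *Ern1*, *Ssr1*, *Derl2* and *Sec61a1* and lowered *Asns* and *Herpud1*, which is 9 of 34 against 8.57% of all genes. Their fold changes ran from 0.40 for *Sec61a1* to 1.16 for *Pdia4*, with -2.64 for *Asns* and -0.92 for *Herpud1*, and the median of the members was 0.47. The count was 1 without control fasted mouse 2 or sucrose mouse 1, 3 without control fasted mouse 1 or sucrose mouse 2, and 17 without either fructose-fed mouse labelled MED13-LKO. In mice labelled MED13-LKO sucrose raised *Derl2* (0.47) and lowered *Herpud1* (-1.45), *Trib3* (-1.38), *Ppp1r15a* (-0.78) and *Atf6* (-0.39), with adjusted p from 0.0016 to 0.0382. These 5 compare with 5.71% of all genes, and the median was 0.15. *Herpud1* alone was called when any of the 4 libraries compared was left out. Rescaling to equal sums gave 1 higher and 2 lower, and rescaling to equal 75th percentiles 2 higher and 4 lower.

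Fructose raised *Xbp1* (1.15) and *Ern1* (1.09) and lowered *Herpud1* (-0.78) in control mice, against 5.6% of all genes, with a median of 0.36. *Ern1* was called without each library in turn. *Xbp1* was at 0.66 without control fructose mouse 1 and at 1.64 without mouse 2, and its call was lost without either fasted control mouse (highest adjusted p = 0.136 from limma). The call of *Herpud1* was lost without either fasted control mouse or control fructose mouse 1. The count was 1 without either fasted control mouse and 7 without either fructose-fed mouse labelled MED13-LKO, 5 without control fructose mouse 2, and under equal library sums 5 were higher and 1 lower. In mice labelled MED13-LKO it raised *Hyou1* (1.31), *Manf* (1.30), *Pdia4* (1.22), *Dnajb11* (0.79), *Ddit3* (0.69) and *Ssr1* (0.50) and lowered *Ppp1r15a* (-1.04) and *Herpud1* (-1.04). That is 8 of 34 against 6.53% of all genes, with adjusted p from 0.00706 to 0.0499 and a median of 0.45. Without fructose mouse 2 limma called 0 (12 at an unadjusted p under 0.05), with *Hyou1*, *Pdia4* and *Dnajb11* at 0.87, 0.68 and 0.45. Without fructose mouse 1 it called 18 higher and 2 lower, which rest on mouse 2 alone, with the spread taken from the other groups. The count was also 1 without either fasted mouse of that genotype, 5 without any sucrose-fed mouse and 13 without either fructose-fed control mouse, and under equal library sums it was 15 higher and 2 lower.

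Whether the response to feeding differed between the genotypes was tested by the interaction. With the sugars pooled limma called 0 members, against 0.0404% of all genes, and 4 had an unadjusted p under 0.05. They were *Ern1* (-0.72, SE 0.161, adjusted p = 0.195), *Atf6* (-0.47, adjusted p = 0.202), *Xbp1* (-0.68, adjusted p = 0.492) and *Asns* (2.65, adjusted p = 0.359). For sucrose limma called 0 against 0.146% of all genes, with 10 at an unadjusted p under 0.05 and a median of -0.42 over the members. *Atf6* was higher in both sucrose-fed control mice and lower in both of those labelled MED13-LKO than in their fasted mice (log2 fold change -0.60, SE 0.123, adjusted p = 0.185), and *Syvn1* (-1.49) and *Eif2ak3* (-0.76) also had adjusted p of 0.461 and 0.46. For fructose limma called 0 against 0.0243% of all genes, with 4 at an unadjusted p under 0.05, led by *Ern1* (-0.83, adjusted p = 0.239). Without control fructose mouse 2, 1 member was called lower in the pooled and in the fructose interaction. The genes that sugar raised in 1 genotype and not in the other were therefore not shown to respond differently.

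**Figure D4:**
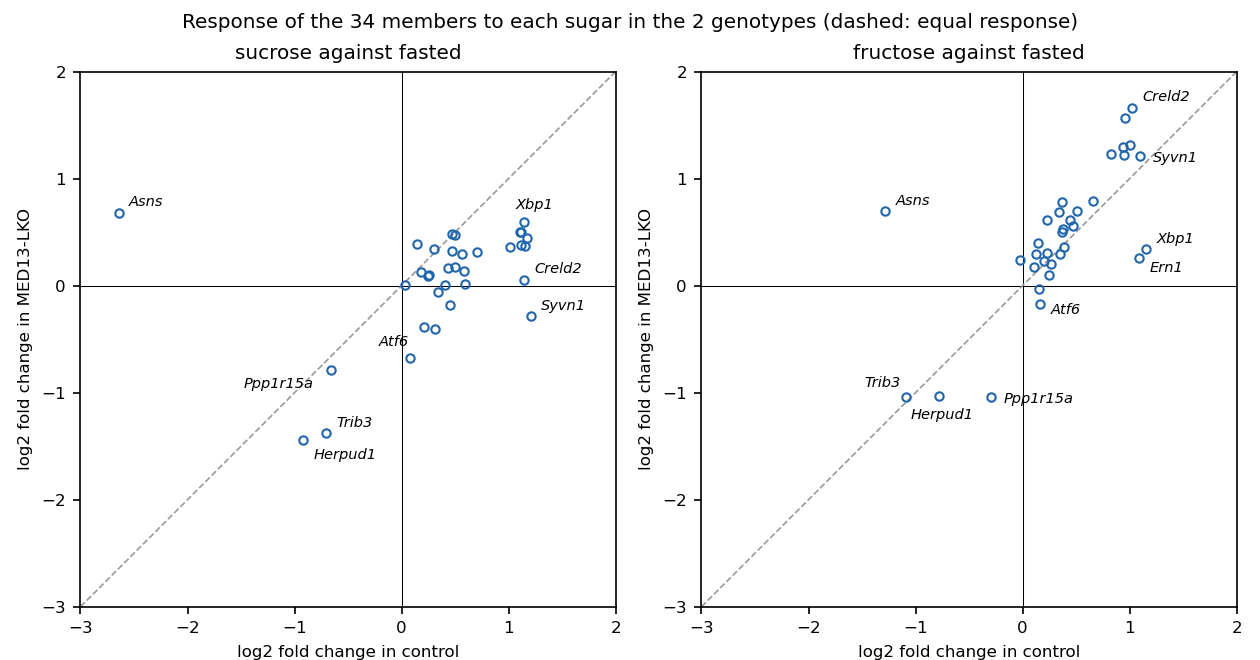
Log2 fold change against the fasted state in control (x axis) and in mice labelled MED13-LKO (y axis) for the 34 members, with sucrose on the left and fructose on the right, and equal responses on the dashed line. With sucrose most points lie below the line, Creld2 and Syvn1 farthest among the chaperone and degradation genes, whereas with fructose most chaperones lie above it and Ern1 and Xbp1 below. The position of the chaperones with fructose rests on MED13-LKO fructose mouse 2, and with mouse 1 alone most would lie below the line. Relative to fasted control, the median over 15 chaperones and isomerases was -0.08 in mouse 1 and 0.70 in mouse 2.

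The sugars themselves were compared over both genotypes. Limma called 0 members between fructose and sucrose, against 0.0404% of all genes, and 6 had an unadjusted p under 0.05. *Creld2* (0.75, SE 0.311) and *Syvn1* (0.70, SE 0.252) had the largest differences, with adjusted p of 0.502 and 0.45. Without MED13-LKO fructose mouse 2 these differences were 0.34 and 0.41, and *Creld2* was at 1.15 without fructose mouse 1 of that genotype. The fold change was above 0 for 28 of the 34 members and for 48.9% of all genes.

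Other genes of the same pathways were counted from lists chosen by role. Of 16 other ER folding genes 4 rose with feeding and 6 were lower in the libraries labelled MED13-LKO, among them *P4hb* (-0.43), the founding disulfide isomerase, and *Sil1* (-0.67), an exchange factor of BiP. Of 18 other translocation and glycosylation genes 5 rose and 7 were lower by genotype. Of 12 other degradation genes 1 rose and 2 fell with feeding, and 3 were lower by genotype. Of 22 ER to Golgi coat genes 5 rose and 3 fell, and by genotype 1 was higher and 10 were lower. Of 26 other ATF4 targets 7 rose and 7 fell with feeding, among the latter *Ddit4* at -2.87, and by genotype 2 were higher and 3 lower. Of 11 other sensors, proteases and membrane factors 4 rose and 2 fell, and 2 were higher and 3 lower by genotype. These counts are read against 10.7% of all genes higher and 11% lower with feeding and 12.1% higher and 13.2% lower by genotype, and several are near those shares. Under equal library sums the lists had, by genotype and in the order given, 10, 5, 9, 15, 13 and 6 genes higher and 1, 0, 0, 0, 1 and 0 lower, where 57.5% of all genes were higher and 3.28% lower.

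The markers of other cells were read beside these counts. By genotype 2 of 6 Kupffer cell and 4 of 6 sinusoidal endothelial genes were higher, against 12.1% of all genes. Of the stellate cell genes 3 of 6 and of the cholangiocyte genes 1 of 4 were lower, against 13.2% of all genes. Summed Kupffer cell counts were 2972 to 4147 in control and 4031 to 5360 with the MED13-LKO label. In the same order, sinusoidal endothelial sums were 3831 to 4602 and 4524 to 5919. Stellate cell sums were 5341 to 6434 and 4842 to 5590, and cholangiocyte sums 666 to 876 and 534 to 849. B and plasma cells, the latter rich in ER chaperones, had summed markers of 23.3 to 82.7 in control and 90.5 to 156 with the MED13-LKO label, where *Jchain* and *Igkc* were both higher. T cell markers summed to 15.6 to 38.4, neutrophil markers to 6.07 to 65.8 and the pancreatic acinar marker *Cela1* to 0 to 5.62. The part of these cells in the results was not tested.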

How the data were processed

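Liver RNA was sequenced by the authors from 12 mice. Per the study's methods, reads were trimmed with Trim Galore, counts were estimated with kallisto, and the authors tested them with DESeq2. The submitters' processing notes give versions 0.6.5, 0.46.0 and 1.24.0 of these tools and the build mm10. The deposited signal values are normalized (not raw) counts per gene, so read depth is not given by them and no count-based test was run. Groups were taken from sample titles. Symbols were matched for 16212 of 16346 identifiers (GENCODE M21).

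Genes whose deposited values averaged at least 10, 12366 in all, were fitted as log2(normalized count + 1) with limma 3.58.1 in R 4.3.3, with 6 groups and a mean-variance trend. This fit replaces the authors' DESeq2 test. Fold changes are on that scale, which understates low genes. Genes with a Benjamini-Hochberg adjusted p under 0.05 are called. The fit was tested on simulated data. Nothing states that equal replicate numbers mark littermates, and correlations of same-numbered mice were from -0.142 to 0.0782, so the fit has no block. These numbers are those of the sample titles. The submitters' own library labels number the fed mice otherwise, so fasted and fed mice were not matched by those labels. The members and lists were chosen with earlier results of these data known. All 34 members are named, with values per mouse for the called genes of largest change in each comparison and in each role. Shared sequence is counted over the 31-base subsequences of each gene, as the percent found in other GENCODE M21 genes. Figures and summaries used Python 3.11.15, pandas 2.3.3 and matplotlib 3.10.9. Alternatives were pseudocounts of 0.1 and 10, no filter, 75th percentile and library-sum scaling, a replicate block, fits of the compared groups only, and leaving out each mouse.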

Additional observations from a re-analysis of the deposited data

How the results depend on the processing

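A pseudocount of 0.1 or 10, equal 75th percentiles and fitting without a filter left the counts of called members within 1.5 times those reported, except that for the libraries labelled MED13-LKO against control with fructose the count was 1 in place of 2 with pseudocount 0.1 and without the filter. Under equal library sums, chosen after the data were seen, the counts were 10 for genotype over all diets, 16 and 6 for sucrose and fructose in control, 3 and 17 for sucrose and fructose in mice labelled MED13-LKO, and 7 for genotype with sucrose. Under that scaling 22 members were below 0 between genotypes over all diets, in place of 32, and 32 were below the median of all genes. By its construction the scaling raises all genes of the libraries labelled MED13-LKO. It also put the median of all genes at 0.11 and 0.12 for sucrose and fructose in control. In mice labelled MED13-LKO that median was 0.07 and 0.10. Among the differences that changed sign were *Ern1* at 0.0033, *Canx* at 0.107, *Edem1* at 0.137, *Derl1* at 0.197 and *Xbp1* at 0.104. When only the compared groups were fitted, the counts were 20 and 1 for sucrose and fructose in control, 8 and 3 for sucrose and fructose in mice labelled MED13-LKO, and 0 for genotype with fructose (limma, 6 at an unadjusted p under 0.05).

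A block for the replicate number gave, for genotype with fructose, a count of 1, and no other count moved by over 1.5 times. Under it 10 of the called fold changes of single genes lost their call and 0 gained one. With the numbers of the fructose-fed mice labelled MED13-LKO crossed, the count was also 1.

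Leaving out each mouse in turn gave 12 to 27 for feeding, 16 to 26 for genotype over all diets, 1 to 17 for sucrose and 1 to 7 for fructose in control, 1 to 7 for sucrose and 0 to 20 for fructose in mice labelled MED13-LKO, and 0 to 6, 0 to 19 and 0 to 4 for genotype when fasted, with sucrose and with fructose. It gave 0 to 1 for the pooled and fructose interactions, and 0 for the sucrose interaction and for fructose against sucrose. With 2 mice per group, a single mouse thus decided many calls within a diet.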
